A study of Mus musculus with 69 samples.

Results

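The p53 targets and growth arrest genes followed here in newly made RNA of the mouse kidney were Cdkn1a, Mdm2, Ccng1, Trp53inp1, Btg2, Plk2, Plk3, Gadd45a, Gadd45b and Gadd45g. They were taken by symbol, 10 of the 24411 genes of the count table, and all 10 were among the 21175 genes tested. The 69 libraries came from mice that express Uprt, uracil phosphoribosyltransferase, from the Rosa26 locus once a Cre driver has removed a stop cassette. Uprt builds 4-thiouracil (4-TU) into new RNA, and the tagged RNA was biotinylated and pulled down. In Hoxb7Cre;UPRTf/+ mice Uprt is made in the collecting duct, and in the line that the labels spell Atp6b1v1Cre;UPRTf/+ (Atp6v1b1Cre here) it is made in the intercalated and double-positive cells of the collecting duct. Every mouse, controls included, carried Cre and Uprt and received 430 mg/kg of 4-TU in the peritoneum 4 hours before dissection. Ischemia was 10 minutes of clamping of both renal pedicles 24 hours before labeling, and volume depletion was 72 hours of restricted water and food. The injury comparisons used mice of 5.5 months. In males there were 4 Hoxb7Cre controls, 4 ischemic and 3 volume depleted, and 4, 3 and 4 in Atp6v1b1Cre. In females there were 4, 3 and 4 in Hoxb7Cre and 4, 3 and 3 in Atp6v1b1Cre. A further 5 control pulldowns came from mice of 3 months, and 21 libraries held total kidney RNA, from control mice only, without pulldown.

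The p53 protein is a transcription factor that is held at a low level by Mdm2, a ubiquitin ligase whose own gene is a p53 target, so that the pair forms a feedback loop. When p53 is stabilized by DNA damage or other stress, Cdkn1a (p21, an inhibitor of cyclin-dependent kinases) stops the cell cycle, and other targets act on mRNA decay, autophagy and apoptosis. Several of the 10 genes also answer to stress kinases and growth signals without p53. In kidney tubules p21 is known from acute injury, where cells pause before they divide. In the GENCODE annotation of GRCm38 (strand in parentheses) Cdkn1a at chr17:29090976-29100727 (plus), Mdm2 at chr10:117688875-117710758 (minus), Ccng1 at chr11:40748552-40755311 (minus), Trp53inp1 at chr4:11156431-11174379 (plus), Btg2 at chr1:134075170-134079120 (minus) are listed. The kinase genes and the Gadd45 family are listed as Plk2 at chr13:110395046-110400844 (plus), Plk3 at chr4:117128655-117133963 (minus), Gadd45a at chr6:67035096-67037457 (minus), Gadd45b at chr10:80930073-80932204 (plus) and Gadd45g at chr13:51846678-51848468 (plus).

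Libraries held 12618062 to 30305464 counts. Levels are given in CPM, the count divided by the library total after TMM scaling and set to a common total. Xist and Ddx3y matched the labelled sex in 69 of 69 libraries. The labels do not say which libraries share a mouse, and p-values measure only the spread between these samples. Library numbers in the labels fall in runs, 1 to 40, 65 to 85 and 98 upwards, called library series A, B and C here. All Hoxb7Cre libraries of injured mice were in series A, while their controls were spread over series A and B in males and A, B and C in females. The cell types named for the drivers were present but not pure. The summed level of 6 principal cell markers was 1104 to 3439 CPM in Hoxb7Cre control pulldowns and 668 to 1175 CPM in total RNA. For 6 intercalated cell markers it was 551 to 1333 CPM in Atp6v1b1Cre control pulldowns and 344 to 612 CPM in total RNA. Proximal tubule markers summed to 1296 to 4184 CPM in the control pulldowns of both drivers and 7699 CPM or more in total RNA, so that transcripts of other segments were reduced and not removed. Lists for thick ascending limb, podocyte, endothelial, leukocyte and fat cells lay lower in pulldowns than in total RNA or overlapped it, and of 5 red cell markers 4 were at 3 counts or fewer in each library.

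Letters upstream of some members are shown first because they hold the letters of p53 motifs or of the cAMP response element (CRE), a motif known from early response genes. Windows of 300 bases around the starts of RefSeq genes (GRCm38.p6, 250 bases before the start and 50 after it) were found for 9 of the 10 members. On both strands the CRE, TGACGTCA, was in the windows of Btg2 and Plk2, 166 and 62 bases before the start, against 1.79% of all 32851 windows. Windows with a pair of p53 decamers, with up to 1 mismatch and up to 13 bases between them, made up 1.09% of the total. They included a window of Cdkn1a and that of Ccng1. For each gene the pair with the fewest mismatches is given. That of Cdkn1a began 73 bases before the start, with 0 mismatches and 12 bases between the decamers. The letters that follow its GAACATGTCT, tgacatgttc, form a further pair with it, at 1 mismatch and 0 bases between. The Ccng1 pair began 195 bases before its start, with 1 mismatch and 0 bases between. Cdkn1a had a window at a further start, chr17:29093519-29093818, which held the GC box but no p53 decamer or pair. The TATA letters TATAAA were in the windows of 2 members, Gadd45b and Gadd45g, against 13.6% of all windows. The GC box GGGCGG was in those of 7 members against 35.7%, and CCAAT in those of 6 against 37.4%. A match is a description of these letters and not a site shown to bind. The 250 bases before the start of those 4 genes, on the strand of the gene with the CRE or the pair of fewest mismatches in capitals, are at chr1:134079156-134079405 (Btg2, minus strand), chr13:110394794-110395043 (Plk2, plus strand), chr17:29090729-29090978 (Cdkn1a, plus strand) and chr11:40755287-40755536 (Ccng1, minus strand).
Btg2: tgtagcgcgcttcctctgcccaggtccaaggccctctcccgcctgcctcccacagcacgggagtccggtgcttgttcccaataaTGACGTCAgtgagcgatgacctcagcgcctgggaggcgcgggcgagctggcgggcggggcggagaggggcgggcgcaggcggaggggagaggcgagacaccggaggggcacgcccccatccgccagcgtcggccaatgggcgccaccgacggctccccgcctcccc
Plk2: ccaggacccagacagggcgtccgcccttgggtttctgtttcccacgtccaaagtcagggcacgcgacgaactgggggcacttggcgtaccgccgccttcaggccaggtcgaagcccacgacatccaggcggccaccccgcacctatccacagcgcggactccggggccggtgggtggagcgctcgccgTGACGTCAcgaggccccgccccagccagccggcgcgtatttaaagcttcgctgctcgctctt
Cdkn1a: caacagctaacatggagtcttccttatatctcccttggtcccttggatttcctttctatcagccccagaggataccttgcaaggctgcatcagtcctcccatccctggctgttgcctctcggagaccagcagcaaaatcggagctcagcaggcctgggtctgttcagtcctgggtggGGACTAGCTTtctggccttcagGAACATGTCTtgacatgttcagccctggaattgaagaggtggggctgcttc
Ccng1: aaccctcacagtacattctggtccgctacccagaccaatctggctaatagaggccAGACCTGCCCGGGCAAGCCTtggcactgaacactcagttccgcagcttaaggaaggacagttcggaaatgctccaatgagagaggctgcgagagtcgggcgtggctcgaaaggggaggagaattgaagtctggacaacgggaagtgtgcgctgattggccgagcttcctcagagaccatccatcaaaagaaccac

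The question of the injury comparisons was whether the collecting duct responds to ischemia and to volume depletion in the same way. In male Hoxb7Cre pulldowns most of the group rose after volume depletion. After volume depletion 8 of the 10 genes were called higher (edgeR's quasi-likelihood test, with an adjusted p below 0.05 and a change of 1 or more on the log2 scale), where 9.61% of all tested genes were called higher and 16.4% were called in either direction. The median log2 fold change of the 10 was 2.81, and that of all tested genes 0. Libraries of the compared groups did not overlap for 9 of the 10. The share of all tested genes without overlap was not computed, so this count cannot be set against the rest. The exceptions to the call were Mdm2, which rose by less, and Ccng1, which did not pass. With both sexes in one fit and sex as a covariate the count was 5, and Trp53inp1 (log2 0.75), Plk2 (0.73) and Gadd45a (0.79) were no longer called. Since these are whole pools of tagged RNA, more RNA per cell and more tagged cells of a type cannot be told apart.

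Marker lists moved in the same male Hoxb7Cre libraries. The principal cell sum was 2694 to 3439 CPM in controls, 1005 to 1254 CPM after ischemia and 1110 to 1213 CPM after volume depletion, where 4 of 6 markers were called lower. Thick ascending limb markers summed to 1709 to 2865 CPM in controls and 874 to 1007 CPM after volume depletion, and fat cell markers to 95.7 to 210.2 CPM and 66.4 to 83.9 CPM. Sums that lay higher after volume depletion were those of endothelial markers, 107.6 to 217 CPM against 245 to 356 CPM, podocyte markers, 151 to 182 CPM against 226 to 274 CPM, and injured tubule markers, 20.0 to 27.3 CPM against 66.7 to 90.4 CPM. Only 2 of 5 endothelial, 1 of 4 podocyte and 1 of 4 injured tubule markers were called higher. The median log2 fold changes of these lists were 0.36, 0.098 and 0.45. Havcr1, of the injured tubule list, lay lower, at 1.47 to 5.06 CPM in controls and 0.82 to 1.05 CPM after volume depletion (log2 -1.60, adjusted p = 0.24). None of these ranges overlapped between control and volume depletion. Intercalated cell sums did overlap, at 589 to 969 CPM in controls and 411 to 669 CPM after volume depletion. Of those 6 markers 4 were called lower, with a median log2 fold change of -1.25. The part of these marker lists in the members' result was not tested.

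**Figure D1:**
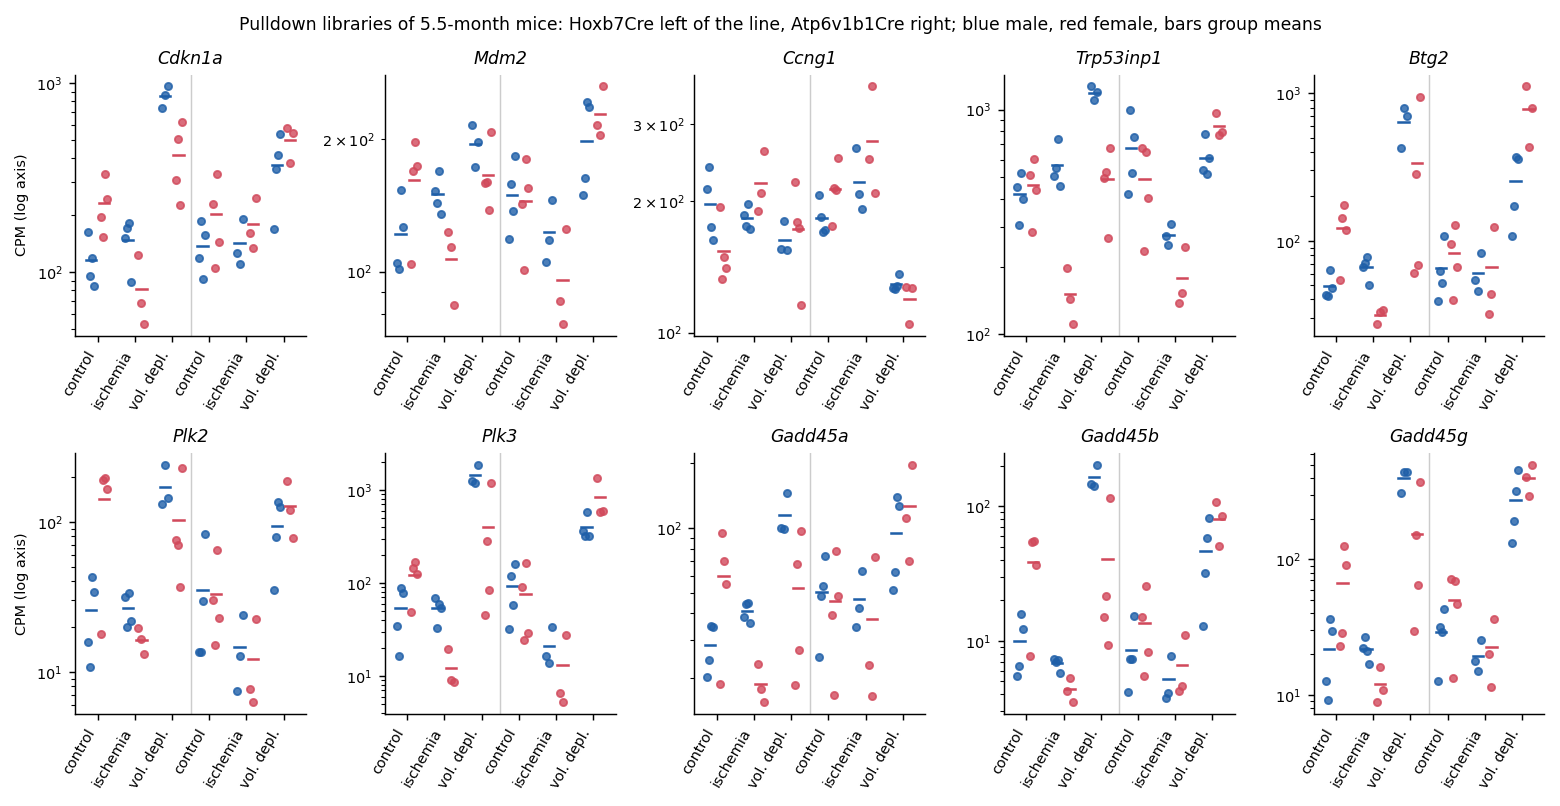
CPM of the 10 genes in each pulldown library of 5.5-month mice (points, log axis; blue male, red female), by driver and treatment, with bars at the group means. In males Plk3 lies at 1179 to 1875 CPM in the volume depleted Hoxb7Cre libraries and at 16.2 to 87.5 CPM in their controls, while Ccng1 stays between 126 and 265 CPM in every male library.

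Cdkn1a was at 84.2, 94.7, 119 and 163 CPM in the male Hoxb7Cre controls and at 739, 867 and 961 CPM after volume depletion. All 3 volume depleted libraries lay far above all 4 controls. The fold change was 7.45 (log2 2.90, standard error 0.32, adjusted p = 7.9e-07, n = 3 and 4). Btg2, an antiproliferative cofactor that recruits the deadenylase complex to mRNA, was at 42.5, 42.9, 48.1 and 63.7 CPM in the controls and at 429, 708 and 793 CPM after volume depletion. These groups did not overlap either, and the controls were tightly bunched. Its fold change was 13.1 (log2 3.71, standard error 0.37, adjusted p = 2.8e-07). Trp53inp1, a nuclear and autophagy protein induced by p53, was at 308, 399.8, 451 and 520.1 CPM in controls and at 1098, 1196 and 1269 CPM after volume depletion. It was the member with the highest CPM in the controls and one of the smaller responses among those called, 2.84-fold (log2 1.51, standard error 0.23, adjusted p = 3.2e-05).

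Plk2 and Plk3 encode polo-like kinases that are made early after stress or growth signals and that can restrain the cell cycle. Plk3 was at 16.2, 34.1, 78.1 and 87.5 CPM in controls and at 1179, 1261 and 1875 CPM after volume depletion. All volume depleted libraries lay far above the controls, which themselves spread widely. At 26.7-fold (log2 4.74, standard error 0.53, adjusted p = 9.4e-07), it was the largest response of the 10. Plk2 was at 10.7, 15.9, 34.1 and 42.8 CPM in controls and at 131, 143 and 239.7 CPM after volume depletion. There was no overlap, and the fold change was 6.64 (log2 2.73, standard error 0.57, adjusted p = 6.2e-04). The controls of both kinases split by library series: Plk3 was at 16.2 and 34.1 CPM in the 2 controls of series A and at 78.1 and 87.5 CPM in the 2 of series B, and Plk2 was at 10.7 and 15.9 CPM against 34.1 and 42.8 CPM. Within series A, which holds the volume depleted libraries, 8 members were again called. Plk3 then stood at a log2 fold change of 5.85 and Plk2 at 3.70.

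The 3 Gadd45 genes encode small stress sensors that bind kinases of the p38 and JNK cascades, cyclin B1 complexes and p21. Gadd45a, the one best known as a p53 target, was at 20.2, 24.2, 34.5 and 35.1 CPM in controls and at 98.4, 99.7 and 144 CPM after volume depletion. Gadd45b was at 5.44, 6.49, 12.2 and 15.7 CPM in controls and at 142, 147 and 204 CPM after volume depletion. Gadd45g was at 9.25, 12.6, 29.7 and 36.3 CPM in controls and at 311, 439.8 and 443 CPM after volume depletion. None of the 3 overlapped between the groups, and Gadd45a had the smallest change of them. The fold changes were 4.02 for Gadd45a (log2 2.01, standard error 0.33, adjusted p = 5.7e-05), 16.5 for Gadd45b (log2 4.05, standard error 0.48, adjusted p = 1.8e-06) and 18.1 for Gadd45g (log2 4.18, standard error 0.45, adjusted p = 5.6e-07). The kit does not mark strand, and Gadd45a overlaps E230016M11Rik, which had 58 to 89 counts in controls and 88 to 177 after volume depletion against 479 to 736 and 1981 to 3512 of Gadd45a. Plk3 likewise overlaps Tctex1d4, with 1 to 7 and 45 to 100 counts against 334 to 1772 and 25044 to 45593 of Plk3.

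Mdm2 and Ccng1, the negative regulators of p53 in the group, behaved otherwise. Mdm2 was at 101.6, 104.8, 126 and 154 CPM in controls and at 173, 197 and 215 CPM after volume depletion. It rose without overlap, but only 1.61-fold (log2 0.69, standard error 0.19, adjusted p = 0.0055). Ccng1, cyclin G1, which brings a phosphatase to Mdm2 and is a textbook p53 target, was at 163, 174, 213 and 239.8 CPM in controls and at 155, 155 and 179.9 CPM after volume depletion. The groups overlapped, and the change of -0.27 did not pass (log2, standard error 0.13, adjusted p = 0.12). Within series A it was -0.46 with an adjusted p of 0.0073. Trp53 mRNA itself, which encodes p53, was at 28.8, 29.5, 38.1 and 38.3 CPM in controls and at 18.2, 23.8 and 26.5 CPM after volume depletion. It fell by 0.56 on the log2 scale (standard error 0.16, adjusted p = 0.0092). The 2 controls of series A, which holds the volume depleted libraries, were the lower ones, at 28.8 and 29.5 CPM, and those of series B were at 38.1 and 38.3 CPM. The p53 protein was not measured.

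In the male Atp6v1b1Cre pulldowns volume depletion raised 5 members past the call, Cdkn1a, Btg2, Plk3, Gadd45b and Gadd45g, where 3.45% of all tested genes were called higher and 5.15% in either direction. The median log2 fold change of the 10 was 1.42. The intercalated cell sum was 727 to 980.4 CPM in these controls and 476 to 629.8 CPM after volume depletion, and the fat cell sum 90.3 to 205.6 CPM and 57.9 to 72.8 CPM, both without overlap. Their part in the result was not tested. Cdkn1a was at 92.3, 118, 157 and 185 CPM in controls and at 169, 350.4, 414 and 538 CPM after volume depletion. Its lowest volume depleted library lay inside the control range. The fold change was 2.69 (log2 1.43, standard error 0.29, adjusted p = 0.0026). Within library series A it was 0.78 on the log2 scale with an adjusted p of 0.17. Btg2 was at 39.2, 51.4, 62.5 and 107.03 CPM in controls and at 108.5, 172, 361 and 370.0 CPM after volume depletion, groups that just failed to overlap. It rose 3.91-fold (log2 1.97, standard error 0.34, adjusted p = 6.9e-04).

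Plk3 was at 32.2, 57.5, 119 and 162 CPM in the Atp6v1b1Cre controls and at 321, 323, 362 and 576 CPM after volume depletion. All 4 volume depleted libraries were higher than all 4 controls. The fold change was 4.30 (log2 2.11, standard error 0.46, adjusted p = 0.0042). It missed the threshold, at a log2 fold change of 1.45 and an adjusted p of 0.061, when 3 male controls of 3 months were added. Gadd45g was at 12.6, 29.05, 31.6 and 42.9 CPM in controls and at 132, 191, 322 and 460.3 CPM after volume depletion. It was the clearest of the 10 in this pool, 9.58-fold without overlap (log2 3.26, standard error 0.42, adjusted p = 4.1e-05). Gadd45b was at 4.19, 7.29, 7.36 and 15.3 CPM in controls and at 12.8, 31.8, 57.8 and 82.4 CPM after volume depletion. One volume depleted library fell below the highest control, and the fold change was 5.39 (log2 2.43, standard error 0.44, adjusted p = 0.0011).

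Gadd45a passed the adjusted p in Atp6v1b1Cre but not the fold threshold, with 24.96, 48.1, 53.8 and 73.8 CPM in controls and 51.5, 62.5, 126 and 139 CPM after volume depletion. These ranges overlapped (log2 0.92, standard error 0.30, adjusted p = 0.043). Plk2 was at 13.6, 13.7, 29.9 and 82.6 CPM in controls and at 34.9, 79.5, 124 and 134 CPM after volume depletion. The highest control lay above 2 of the 4 volume depleted libraries, and the adjusted p was 0.070 (log2 1.42, 95% interval 0.340 to 2.495), and within series A Plk2 was called, at 2.07 with an adjusted p of 0.0030. Mdm2 was at 119 to 183 CPM in controls and 149 to 243 CPM after volume depletion and did not pass (log2 0.42, adjusted p = 0.11). Trp53inp1 was at 422 to 994 CPM in controls and 515 to 778 CPM after volume depletion, a log2 fold change of -0.13 (95% interval -0.58 to 0.32) whose sign turned under 3 of the alternative settings. Ccng1 was at 170.0, 172, 184 and 206 CPM in controls and at 126, 126, 128 and 136 CPM after volume depletion. It was the only member that fell in a male pool after volume depletion, by 0.49 on the log2 scale and with no overlap (standard error 0.12, adjusted p = 0.0096).

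**Figure D2:**
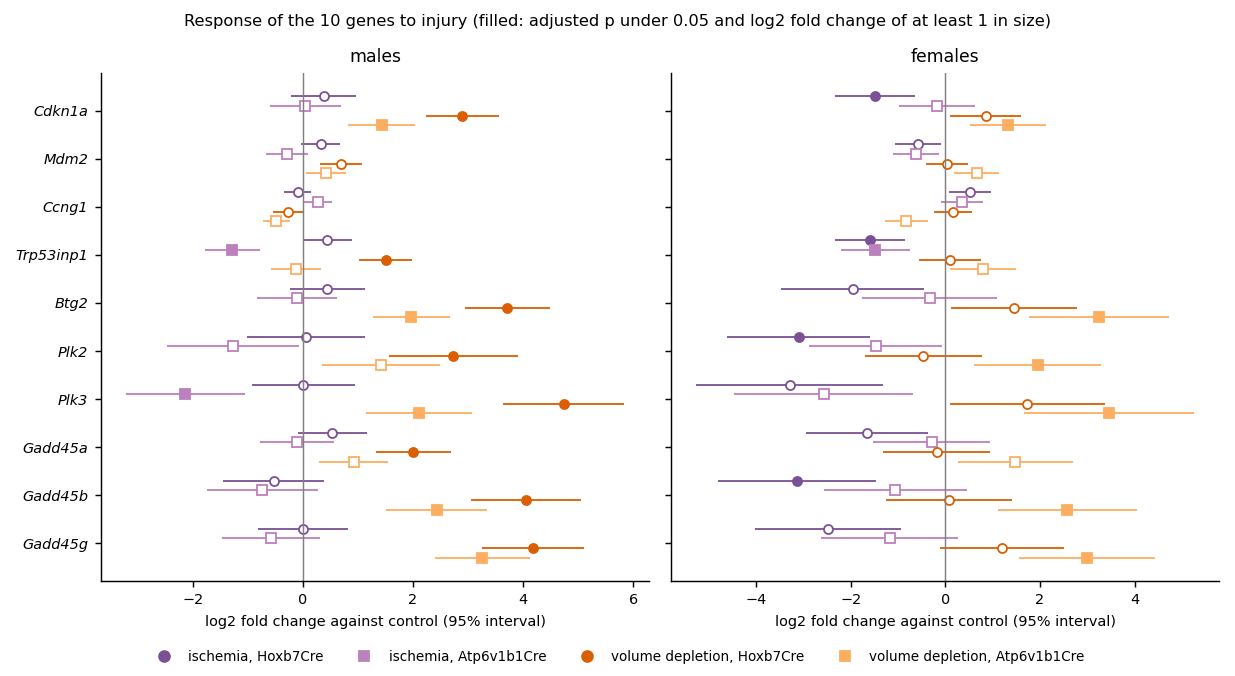
Log2 fold change against control of each gene in the 4 injury comparisons of males and the 4 of females (points; lines are 95% intervals; filled points passed the call). In males the volume depletion points reach 4.74 for Plk3 in Hoxb7Cre, and the ischemia points of Hoxb7Cre stay between -0.53 and 0.53.

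Whether the 2 cell pools differed was tested by an interaction of driver and treatment. For volume depletion 3 members were called, all with the smaller response in Atp6v1b1Cre, where 1.6% of all tested genes were called lower and 2.93% in either direction. The response of Trp53inp1 was lower by 1.63 on the log2 scale (adjusted p = 0.0048), that of Btg2 by 1.74 (adjusted p = 0.040) and that of Plk3 by 2.63 (adjusted p = 0.023). These calls rested on few libraries. A single member was called without Hoxb7Cre volume depleted male replicate 7, without Atp6v1b1Cre control male replicate 9 or without Atp6v1b1Cre control male replicate 11, and 5 were called without Atp6v1b1Cre volume depleted male replicate 7. With library series as a covariate 8 were called. With both sexes in one fit and sex as a covariate 0 were called, and the differences were -0.40 for Trp53inp1, 0.14 for Btg2 and -0.25 for Plk3. For Gadd45g the difference was -0.92 with a 95% interval of -2.10 to 0.26, so that a response as large as in Hoxb7Cre was within the error.

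After ischemia 0 of the 10 were called in male Hoxb7Cre pulldowns by edgeR, where 2.3% of all tested genes were, and 0 had an unadjusted p under 0.05. DESeq2 called 0 as well. Log2 fold changes ran from -0.53 to 0.53 with a median of 0.19. Cdkn1a was at 89.0, 151, 171 and 181 CPM after ischemia, which overlapped its controls at 84.2 to 163 CPM (95% interval of the log2 fold change -0.23 to 0.97). Gadd45a alone had groups that did not overlap, with 36.2 to 44.6 CPM after ischemia against 20.2 to 35.1 CPM. Within series A, which holds the ischemic libraries, 0 were called. There Mdm2 (log2 0.53, adjusted p = 0.017), Gadd45a (0.87, adjusted p = 0.016) and Gadd45g (0.98, adjusted p = 0.032) passed the adjusted p. Plk3 (1.09), Plk2 (1.00) and Ccng1 (-0.32) did not pass it there. With library series as a covariate Plk2 and Gadd45a were called, at log2 fold changes of 1.02 and 1.01. Mdm2 (0.55) and Btg2 (0.84) then passed the adjusted p without reaching the fold threshold. The ischemic mice were not without injury: Havcr1 (KIM-1), a tubular injury marker, rose by 5.45 on the log2 scale (adjusted p = 8.9e-04) and Lcn2 (NGAL) by 2.78 (adjusted p = 0.011) in these pulldowns. Neither passed the test in the male volume depleted pulldowns.

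In male Atp6v1b1Cre pulldowns ischemia lowered 2 of the 10, where 1.68% of all tested genes were called lower and 2.82% in either direction. Trp53inp1 was at 251, 273 and 311 CPM after ischemia and at 422 to 994 CPM in controls, with no overlap (log2 -1.28, standard error 0.24, adjusted p = 0.0028). Plk3 was at 13.7, 16.6 and 33.2 CPM after ischemia and at 32.2 to 162 CPM in controls, touching at the edge (log2 -2.14, standard error 0.52, adjusted p = 0.014). Only 1 of them was called without Atp6v1b1Cre ischemic male replicate 1, ischemic male replicate 4 or control male replicate 11. The response of Trp53inp1 to ischemia also differed between the pools, lower in Atp6v1b1Cre by 1.72 (adjusted p = 0.0044), 1 member of 10, where 1.88% of all tested genes were called lower and 3.49% in either direction. That count was 2 without any one of 6 libraries, Hoxb7Cre ischemic male replicate 5, Atp6v1b1Cre ischemic male replicate 5, Hoxb7Cre control male replicates 4 and 5 and Atp6v1b1Cre control male replicates 6 and 10. With both sexes in one fit and sex as a covariate the call of Trp53inp1 was lost (-0.98, adjusted p = 0.20) and the count was 0. Proximal tubule markers summed to 1770.2 to 3568 CPM in the male Atp6v1b1Cre controls and 823 to 1151 CPM after ischemia, and endothelial markers to 191 to 247 CPM and 123 to 186 CPM, both without overlap, and their part in the result was not tested. Immediate early genes summed to 393 to 704 CPM in these ischemic libraries and to 377 to 1047 CPM in their controls.

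Set directly against each other, ischemia and volume depletion separated 8 of the 10 genes in each driver, all lower after ischemia. Of all tested genes 8.15% were called lower and 14.7% in either direction in Hoxb7Cre, and 7.16% and 11.6% in Atp6v1b1Cre. The difference was largest for Plk3, at -4.73 (adjusted p = 1.1e-06) in Hoxb7Cre and -4.24 (adjusted p = 1.8e-05) in Atp6v1b1Cre. Mdm2 was lower after ischemia by 0.71 (adjusted p = 0.0067) and Ccng1 higher by 0.75 (adjusted p = 1.8e-04) in Atp6v1b1Cre, where the groups of each did not overlap, and neither passed in Hoxb7Cre. The 2 injuries were compared with the same control libraries, so that their values against control are not independent.

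Other genes of these pathways were counted by lists. Of 30 further p53 targets, 9 were called higher and 1 lower in the volume depleted male Hoxb7Cre pool, with a median log2 fold change of 0.19 against 0 for all genes. By adjusted p alone 10 were higher and 8 lower. Over all tested genes 9.61% were called higher and 16.4% in either direction there, and 3.45% and 5.15% in volume depleted male Atp6v1b1Cre, shares to be read beside each count of these lists. The largest were Ddit4, an inhibitor of mTOR (3.36), Sertad1 (2.02), Sesn2 (1.85) and Pmaip1, the proapoptotic NOXA (1.85). In Atp6v1b1Cre 2 were called higher, Pmaip1 (1.77) and Sertad1 (1.67). After ischemia 0 of 30 were called in Hoxb7Cre by edgeR and by DESeq2 (6 at an unadjusted p under 0.05), and in Atp6v1b1Cre Eda2r rose (1.28) and Sesn2 fell (-1.24). Among 16 relatives of the members and cell cycle brakes, 2 rose after volume depletion in Hoxb7Cre, the antiproliferative Tob2 (2.85) and Tob1 (2.84), kin of Btg2. In Atp6v1b1Cre 4 rose, Tob1 (1.76), Tob2 (1.17), Cdkn2b (1.14) and Gas1 (1.04). After ischemia 0 of the 16 were called in either pool by edgeR or DESeq2, with 9 in Hoxb7Cre and 7 in Atp6v1b1Cre at an unadjusted p under 0.05. Of 16 proliferation genes, Ccnd1 (cyclin D1) fell after volume depletion in both pools, by 1.33 in Hoxb7Cre and by 1.31 in Atp6v1b1Cre. Mcm5 (1.08) and Mcm2 (1.05), subunits of the replicative helicase, rose in Hoxb7Cre, and Mcm3 (1.11) rose there after ischemia. In Atp6v1b1Cre 0 of the 16 were called after ischemia by edgeR or DESeq2, with 5 at an unadjusted p under 0.05. All values in this paragraph are log2 fold changes in males that passed the call.

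Immediate early genes, which encode factors such as Fos and Jun made within minutes of many stimuli, moved with the members. After volume depletion 14 of 14 were called higher in male Hoxb7Cre pulldowns, with a median of 3.21, and 11 of 14 in Atp6v1b1Cre, with a median of 2.15. Atf3 (3.81), Fos (3.71), Ier2 (3.71) and Zfp36 (3.64) led in Hoxb7Cre, and Fos (2.91), Egr1 (2.59), Ier2 (2.57) and Jun (2.41) in Atp6v1b1Cre. After ischemia 1, Egr2, rose in Hoxb7Cre (1.75) and 1, Dusp1, fell in Atp6v1b1Cre (-1.19). Their summed level was 459 to 850.3 CPM in the male Hoxb7Cre controls, 613 to 709 CPM after ischemia and 3952 to 5557 CPM after volume depletion. In male Atp6v1b1Cre it was 377 to 1047 CPM in controls and 1337 to 3784 CPM after volume depletion. Their part in the members' result was not tested.

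In the female Hoxb7Cre pool after volume depletion 0 of the 10 were called by edgeR, where 0.0992% of all tested genes were, with 3 at an unadjusted p under 0.05 and 0 by DESeq2. Cdkn1a was at 226, 308, 505 and 623 CPM after volume depletion and at 154, 196, 243 and 330.4 CPM in controls. Plk3 was at 45.2, 83.1, 286 and 1195 CPM after volume depletion and at 49.2, 124, 145 and 167 CPM in controls. Gadd45b was at 9.28, 14.9, 21.6 and 116 CPM after volume depletion and at 7.76, 36.4, 54.6 and 55.2 CPM in controls. One volume depleted library, replicate 5, was the highest of its group for each of these 3. One more volume depleted library lay above all controls for Cdkn1a, at 505 CPM, and for Plk3, at 286 CPM, and the rest were within or below the control range. Replicate 5 bears number 16 and the other volume depleted females 8, 9 and 10, while the 3 volume depleted males bear 15, 33 and 34. Immediate early genes summed to 7766 CPM in replicate 5 and to 668 to 1717 CPM in the other volume depleted females.

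**Figure D3:**
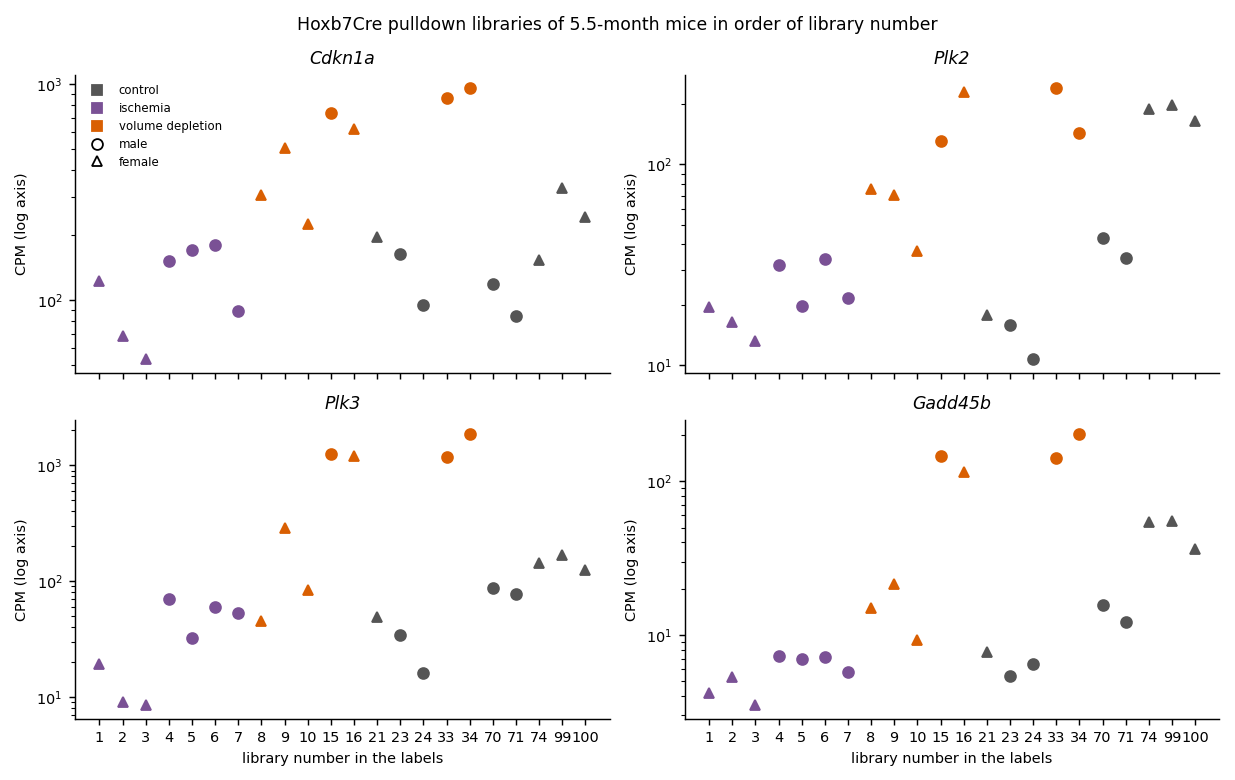
CPM (log axis) of Cdkn1a, Plk2, Plk3 and Gadd45b in the Hoxb7Cre pulldowns of 5.5-month mice, in order of the library number in the labels, with colours for treatment and symbols for sex. Among the volume depleted libraries, numbers 15, 16, 33 and 34 hold more Plk3 (1179 to 1875 CPM) than numbers 8, 9 and 10 (45.2 to 286 CPM).

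The female Hoxb7Cre controls were themselves uneven. Plk2 was at 17.8 CPM in the control of series A and at 164, 189.7 and 197 CPM in those of series B and C. Gadd45b was at 7.76 CPM in the control of series A and at 36.4 to 55.2 CPM in the others. Immediate early genes followed the same order, with 870.2 CPM in the first and 2072 to 2709.8 CPM in the others. Principal cell markers summed to 2434 CPM in the control of series A, 1104 CPM in that of series B and 1281 to 1812 CPM in series C. Intercalated cell markers summed to 914, 416 and 463 to 630 CPM in that order. The part of these lists in the female results was not tested. Against these controls ischemia lowered 4 members, where 1.29% of all tested genes were called lower and 2.08% in either direction. Cdkn1a was at 53.2, 68.6 and 123 CPM after ischemia and fell by 1.49 (adjusted p = 0.048), and Trp53inp1 was at 112, 143 and 198 CPM and fell by 1.60 (adjusted p = 0.030). Both were below all 4 controls. Plk2 was at 13.2, 16.5 and 19.6 CPM and fell by 3.11 (adjusted p = 0.035), with the series A control inside that range. Gadd45b was at 3.51, 4.22 and 5.33 CPM and fell by 3.14 (adjusted p = 0.042). Within series A, which has 1 female control, 0 members were called. The log2 fold changes there were -1.77 for Trp53inp1 and -1.27 for Cdkn1a, and -0.12 for Plk2 and -0.84 for Gadd45b. The count was also 0 without any one of ischemic female replicates 2 and 3 and control female replicates 9 and 10, it was 1 without ischemic female replicate 1 or control female replicate 6, and it was 7 without control female replicate 1 or volume depleted female replicate 5.

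The difference between the sexes was tested itself, in a fit that gives both sexes the same spread. Fitted apart, the common dispersion was 0.078 in females and 0.044 in males, so the p-values may understate the female spread. In Hoxb7Cre the female response was the lower for 6 members after ischemia, where 4.77% of all tested genes were called lower and 6.98% in either direction, and for 8 members after volume depletion, against 5.48% lower and 10.8% in either direction. The largest difference was that of Gadd45b after volume depletion, -3.99 (standard error 0.87, adjusted p = 0.0039). With series A alone, which leaves 1 female control, 0 of the 10 were called in either comparison. The differences there were -2.34 after ischemia and -1.74 after volume depletion for Trp53inp1, against -2.05 and -1.41 with all libraries, and -3.10 and -2.82 for Plk3, against -3.32 and -3.02. Those of Plk2 were -1.12 and -1.18, against -3.18 and -3.21, and that of Gadd45b after volume depletion was -2.42. With library series as a covariate Btg2 alone among the called members lost its call, at -2.21 after ischemia and -2.06 after volume depletion. After ischemia the count was 1 without ischemic female replicate 3, control male replicate 3 or control female replicate 9, 2 without ischemic female replicate 2, and 3 without ischemic male replicate 4 or 6, control male replicate 2, or control female replicate 6 or 10. After volume depletion it was 4 without volume depleted female replicate 3, and 5 without volume depleted female replicate 1, volume depleted male replicate 7, control male replicate 2 or 3, or control female replicate 6 or 9. Sex and library number were separated only in part. Ischemic females bore numbers 1 to 3 and ischemic males 4 to 7, while among the volume depleted libraries female number 16 followed male number 15 and lay within the male range of Plk3. In Atp6v1b1Cre 0 of the 10 differed between the sexes after either injury by edgeR or by DESeq2, as did 0% of all tested genes, with 0 and 1 members at an unadjusted p under 0.05.

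In female Atp6v1b1Cre pulldowns volume depletion raised 6 members past the call, where 6.3% of all tested genes were called higher and 9.89% in either direction. The intercalated cell sum was 879 to 1333 CPM in these controls and 482 to 742 CPM after volume depletion, and its part in the result was not tested. Plk3 was at 24.4, 28.8, 90.0 and 163 CPM in controls and at 584, 589 and 1354 CPM after volume depletion, a log2 fold change of 3.46 (adjusted p = 0.011). Btg2 was at 39.7, 66.9, 95.8 and 128 CPM in controls and at 436, 796 and 1116 CPM after volume depletion, a log2 fold change of 3.24 (adjusted p = 0.0060). Neither overlapped its controls, as was true of Cdkn1a (log2 1.32), Plk2 (1.95), Gadd45b (2.57) and Gadd45g (2.99), whose adjusted p ran from 0.0075 to 0.041. Ccng1 fell again, from 176 to 251 CPM to 104.8 to 127 CPM, by 0.83 (adjusted p = 0.014). Trp53 mRNA also fell, by 1.17 (adjusted p = 0.010), from 32.1 to 40.3 CPM to 13.8 to 20.8 CPM. It did not pass after volume depletion in male Atp6v1b1Cre (log2 -0.34, adjusted p = 0.12) or female Hoxb7Cre pulldowns (-0.10, adjusted p = 0.98). The count of 6 was 2 without volume depleted female replicate 3, 3 without control female replicate 8 or 13, and 3 within library series A. After ischemia 1 member was called, Trp53inp1, which fell by 1.48 (adjusted p = 0.033), where 0.571% of all tested genes were called lower and 1.15% in either direction. It was at 138, 153 and 244 CPM against 236 to 672 CPM in controls, and the call was lost without ischemic female replicate 2 or 3 or control female replicate 7 or 12.

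Levels without injury were compared per kilobase of merged exons, in the control libraries of both sexes and ages. In total kidney RNA the highest member was Ccng1, at 95.2 ± 18.8 CPM per kb (SD, n = 21), followed by Gadd45g at 82.8 ± 45.8, Plk3 at 44.3 ± 21.7, Cdkn1a at 37.2 ± 17.9 and Trp53inp1 at 35.6 ± 13.2. The first 2 lay within their spread of each other, as did the next 3. Plk2, at 7.82 ± 4.79, and Gadd45b, at 9.02 ± 6.13, were the lowest. In the pulldowns Trp53inp1 came first, at 67.2 ± 16.7 CPM per kb in Hoxb7Cre (SD, n = 10) and 90.1 ± 35.9 in Atp6v1b1Cre (SD, n = 11). Cdkn1a, at 49.5 ± 20.7 in Hoxb7Cre, and Ccng1, at 49.0 ± 9.70, were level with each other there.

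**Figure D4:**
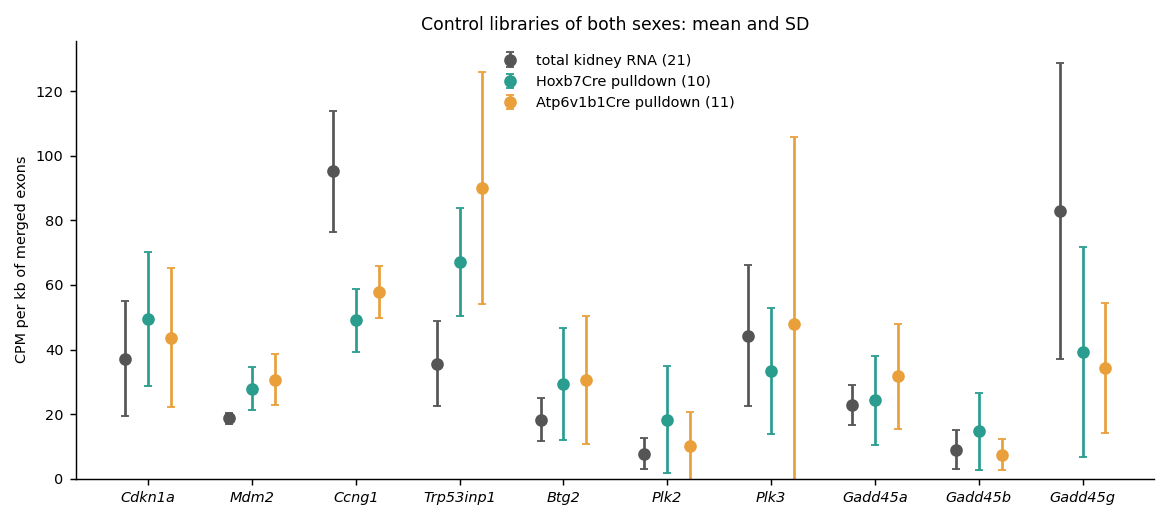
Mean CPM per kb of merged exons with SD for each gene in control libraries of total kidney RNA (21), Hoxb7Cre pulldown (10) and Atp6v1b1Cre pulldown (11). Ccng1 is highest in total RNA at 95.2 and Trp53inp1 in both pulldowns, at 67.2 and 90.1.

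Against total RNA, with sex as a covariate, 3 members were called in the Hoxb7Cre pool and 2 in the Atp6v1b1Cre pool, where 32.5% and 27.7% of all tested genes were called. These shares are near or above those of the members. By library number, the total RNA libraries and the control pulldowns run in the same order of sex and age within each series. They may therefore come from the same mice, which the labels do not state. The fit treated all libraries as independent, and a fit paired in this order was not run. If mice are shared, the comparison across the sexes below counts a mouse more than once. Trp53inp1 was higher in both pools, by 1.01 (adjusted p = 2.1e-06) in Hoxb7Cre and 1.36 (adjusted p = 1.2e-09) in Atp6v1b1Cre, with 105.3 to 479.5 CPM (median 219) in total RNA, 287 to 603 CPM (median 445) in Hoxb7Cre and 236 to 994 CPM (median 522) in Atp6v1b1Cre. The Hoxb7Cre value fell short of the fold threshold in males only (0.74), in libraries of 5.5 months (0.95) and without a filter on low counts (0.98). Gadd45g was lower in both, by 1.22 (adjusted p = 5.7e-04) and 1.08 (adjusted p = 0.0013), and in females only the Hoxb7Cre value was -0.97 (adjusted p = 0.062). Plk2 was called higher in Hoxb7Cre (1.06, adjusted p = 0.015), but in males alone it was at -0.05 and in females alone at 1.52. Ccng1 was lower in both pools without reaching the fold threshold, by 0.88 and 0.68, and Mdm2 higher, by 0.61 and 0.76. Total RNA reflects RNA made over a longer time as well as other cells, and these cannot be told apart. Between the pools 0 of the 10 were called by edgeR, where 4.11% of all tested genes were, with 0 at an unadjusted p under 0.05 and 0 by DESeq2, and log2 differences from -0.52 to 0.45. Across the sexes 1 member was called, Gadd45b, higher in female controls by 1.06 (adjusted p = 0.0011), where 5.03% of all tested genes were called. Cdkn1a (0.80), Gadd45g (0.91) and Btg2 (0.49) were higher and Ccng1 (-0.29) lower at an adjusted p under 0.05 without reaching that fold. With library series as a covariate Gadd45b was at 0.98 (adjusted p = 2.3e-05), just under the fold threshold.

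Genes whose log2 CPM ran most like a member's over the 48 pulldowns were listed for 3 members, out of 9697 genes with a mean of at least 10 CPM. For Cdkn1a they were Nfil3 (Pearson's r 0.909), Tsc22d1 (0.907) and Gfpt2 (0.904). For Mdm2 they were Mir22hg (0.958), Rbm48 (0.955) and Siah1a (0.951), and for Gadd45b Csrnp1 (0.961), Jun (0.961) and Zfp36 (0.959). The libraries share treatments and library series, so these values describe the set of samples and carry no test.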

How the data were processed

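RNA sequencing covered 69 mouse kidney libraries: 48 pulldowns of 4-TU-tagged RNA and 21 of total RNA. The deposited table holds whole-number counts per gene, which the authors made per library. The submitters' processing notes name CASAVA 1.8.2, Trimmomatic 0.36, STAR 2.5.3a and HTSeq 0.6.1p2, and mm10. Library totals ran from 12618062 to 30305464 counts.

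Groups came from the labels. The counts were tested with edgeR 4.0.16 (limma 3.58.1, R 4.3.3), quasi-likelihood, TMM-normalized over the libraries of each fit. The 21175 genes tested had at least 2 counts in all over the 69 libraries, and Benjamini-Hochberg adjustment was over all of them. Calls needed an adjusted p below 0.05 with a change of 1 or more on the log2 scale. Separate fits held 22 male pulldowns and 21 female pulldowns of 5.5 months (6 groups each), 43 of both sexes (12 groups) and 42 controls with sex as a covariate. CPM values came from edgeR with TMM over the 69 libraries, and log2 CPM used a prior count of 2. Python 3.11.15, pandas 2.3.3, numpy 2.4.6 and matplotlib 3.10.9 made tables and plots. On simulated data for volume depletion in male Hoxb7Cre pulldowns (21175 genes), 64% of 100 genes changed by a log2 of 1 were recovered. Of 100 genes changed by 2 it was 91%. In the real comparison 3478 genes were called, so the adjustment worked on far more changed genes and these rates need not hold there. Recovery in the simulation meant an adjusted p below 0.05 with no fold threshold, for genes with a mean of at least 1 CPM. Recovery by the call itself was not computed.

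All 10 members are described. From each pathway list, up to 4 called genes of largest change with a mean of at least 10 counts are named, with Trp53, Havcr1 and Lcn2, and the 3 genes most like Cdkn1a, Mdm2 and Gadd45b. The members and lists were chosen with earlier results of these data known. Alternatives were DESeq2 1.42.0, other filters and sample sets, a replicate block, library series as a covariate, and leaving out each library. Sequences came from RefSeq (GRCm38.p6).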

Additional observations from a re-analysis of the deposited data

Results flagged for a closer look

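In 3 of the 70 groups and genes examined, the highest library stood apart from the others of its group by Dixon's criterion, which chance meets in about 1 in 20 groups. These were Ccng1 in volume depleted male Atp6v1b1Cre replicate 7, at 136 CPM, Plk3 in volume depleted male Atp6v1b1Cre replicate 6, at 576 CPM, and Gadd45b in volume depleted female Hoxb7Cre replicate 5, at 116 CPM.

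A tested difference between the responses of groups was called for 18 of 60. Of all tested genes 3.49% (ischemia) and 2.93% (volume depletion) were called for the driver differences. For the sex differences in Hoxb7Cre the shares were 6.98% and 10.8%. In Atp6v1b1Cre, whose sex differences are among the 60, they were 0% after either injury. Between the drivers in males, Atp6v1b1Cre minus Hoxb7Cre on the log2 scale, it was -1.72 for Trp53inp1 after ischemia, and -1.74 for Btg2, -1.63 for Trp53inp1 and -2.63 for Plk3 after volume depletion. Between the sexes in Hoxb7Cre, female minus male, it was -2.42 for Btg2, -3.18 for Plk2, -1.88 for Cdkn1a, -2.05 for Trp53inp1, -3.32 for Plk3 and -2.21 for Gadd45a after ischemia. After volume depletion it was -2.26 for Btg2, -3.99 for Gadd45b, -2.99 for Gadd45g, -3.21 for Plk2, -2.06 for Cdkn1a, -1.41 for Trp53inp1, -3.02 for Plk3 and -2.20 for Gadd45a. With library series A alone, which leaves 1 female Hoxb7Cre control, none of the differences between the sexes was called, though those of Trp53inp1 (-2.34 and -1.74) and Plk3 (-3.10 and -2.82) were about as large. With library series as a covariate only Btg2 lost its call among them.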

How the results depend on the processing

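Of 10 members, the counts called after volume depletion in male Hoxb7Cre (8) and male Atp6v1b1Cre (5) pulldowns were within 1.5 times of those values in every setting tried, except 5 in Hoxb7Cre, without Trp53inp1, Plk2 and Gadd45a, with both sexes in one fit and sex as a covariate. That fit gives a common response for both sexes, so its values are not those of males alone. In it the count after ischemia in Hoxb7Cre pulldowns was 1. The driver difference was 0 members after ischemia and 0 after volume depletion. Trp53inp1 turned to 0.34 in volume depleted Atp6v1b1Cre, and the driver difference of Btg2 turned to 0.14. With library series as a covariate (added after seeing the data for females and controls) the counts were 2 after ischemia in male Hoxb7Cre, 4 and 8 for the driver differences after ischemia and volume depletion, 0 after ischemia in female Hoxb7Cre and 0 between control sexes. The driver difference after ischemia was 2 with DESeq2 and 2 with edgeR's filterByExpr. After ischemia in female Hoxb7Cre the count was 7 with DESeq2 and 8 with only the compared groups fitted, which gave 0 in female Atp6v1b1Cre. Library series A alone, added for females after seeing the data, gave 0 after ischemia in both female pools, 3 after volume depletion in female Atp6v1b1Cre and 0 for both differences between the sexes in Hoxb7Cre. Without the volume depleted Hoxb7Cre females of library numbers 8 to 10, chosen after these were seen to be low and so no support for a change, the count was 2 on 1 remaining library. In controls, without a fold threshold 6 members passed in each pool against total RNA and 5 between the sexes. In males only the counts were 1 for Hoxb7Cre against total RNA, where Plk2 turned to -0.054, and 1 between the pools. With libraries of 5.5 months only, 3 differed between the sexes. Same-numbered libraries of a driver did not deviate together (8 pairs, mean r -0.14), so the numbers do not pair them. The replicate block gave 0 after ischemia in male Atp6v1b1Cre, 0 for both driver differences, 0 for ischemia and volume depletion in female Atp6v1b1Cre, 0 for ischemia in female Hoxb7Cre, 2 between the control pools and 0 between the control sexes, and turned Trp53inp1 to 0.56 in volume depleted male Atp6v1b1Cre. The cause of these changes was not tested. Leaving out each library in turn gave counts of 0 to 0 (ischemia) and 8 to 8 (volume depletion) in male Hoxb7Cre, 1 to 2 and 5 to 7 in male Atp6v1b1Cre, 1 to 2 and 1 to 5 for the driver differences, 7 to 8 for ischemia against volume depletion in each driver, 0 to 7 and 0 to 0 in female Hoxb7Cre, 0 to 2 and 2 to 7 in female Atp6v1b1Cre, 1 to 9 and 4 to 8 for the sex differences in Hoxb7Cre, and 0 to 0 for both in Atp6v1b1Cre. The change of Trp53inp1 in volume depleted male Atp6v1b1Cre ran from -0.30 to 0.11, the latter without control male replicate 9. Gadd45b had at least 100 counts in every control library, and depth as a limit was not tested.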
